A study of Mus musculus with 12 samples.

Results

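The hearts described here were those placed under pressure load, and the comparison was between the substrains Balb/cByJ and Balb/cJ. They made up 6 of the 12 RNA sequencing libraries of the series, with 3 libraries from Balb/cByJ and 3 from Balb/cJ, and were taken by strain and surgery label with no use of measured values. The Balb/cByJ mice carry a deletion in Acads, the gene for short-chain acyl-CoA dehydrogenase, as the series title marks them, and no such mark is given for Balb/cJ. All mice ate a diet with 10% of its calories from fat, begun 4 days before surgery and kept up after it. Loaded hearts came from mice whose aorta had been narrowed by transverse aortic constriction (TAC), and hearts were collected 1 week later. The other 6 libraries came from sham-operated mice of the same strains on the same diet, 3 for each strain, and serve below as the comparison without load. The labels used here give no age, sex or pooling for these hearts, and nothing says that the libraries of a group came from separate animals, so the spread behind every p-value may be a technical one.

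Narrowing of the aorta makes the left ventricle pump against a higher pressure. The heart muscle answers with growth of its cells, a return of genes used in the fetal heart, matrix deposition by fibroblasts and entry of macrophages. Fatty acids are the main fuel of the adult heart, and short-chain acyl-CoA dehydrogenase takes the last, short-chain intermediates of their breakdown in mitochondria. Balb/cJ and Balb/cByJ are sister lines of one inbred stock that were bred apart, so each carries its own set of fixed mutations beside the Acads deletion.

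Each value below is a normalized read count per gene and library. Sums over all genes ran from 25161466 to 28765635 in Balb/cJ and from 26157968 to 26989827 in Balb/cByJ after TAC. Mitochondrially encoded transcripts took 10.8 to 14.5% of the sum in Balb/cJ and 12.9 to 16.3% in Balb/cByJ. The defining contractile genes of heart muscle were high in every loaded heart, with Myh6 at 563394 to 750813 in Balb/cJ and 543839 to 698978 in Balb/cByJ. Atrial and conduction genes differed among the hearts of one group: the sum over the 18 measured markers ran from 44263 to 157957 in Balb/cJ and from 25902 to 241663 in Balb/cByJ. Pearson correlations of log2 values across genes, which are not independent replicates, were 0.974 to 0.988 within Balb/cJ, 0.976 to 0.981 within Balb/cByJ and 0.969 to 0.984 between the strains.

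One library stood apart at genes that differ between the strains, and differences between the loaded strains are therefore given with and without it. Zhx2, a transcriptional repressor known for a low-expressing allele in Balb/cJ, lies on chromosome 15 at 57694667 to 57839832 of mm10. Its normalized values after TAC were 47, 47 and 45 in Balb/cJ 4, 5 and 6, and 728, 838 and 48 in Balb/cByJ 4, 5 and 6. Dnah17, an axonemal dynein heavy chain on chromosome 11, read 3, 4 and 4 in Balb/cJ and 953, 826 and 2 in Balb/cByJ. The library labelled Balb/cByJ 6 was thus at the Balb/cJ level of both genes. These 2 genes were the reason to doubt it, so they are given as a description and without a test. The decision to leave it out was made with these results known, and taking out a library near the Balb/cJ level widens the differences that remain.

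The position of this library was not the same at all genes. At the 75 genes that passed without it (below), a position of 0 was set at the Balb/cJ mean and 1 at the mean of Balb/cByJ 4 and 5. The library labelled Balb/cByJ 6 had a median position of 0.139 (range -0.967 to 1.55). It was nearer to Balb/cJ at 57 genes and nearer to Balb/cByJ at 18. Among the 18 were Dbh at 0.831, Rangap1 at 0.941 and Slco2b1 at 0.961. The 75 genes were chosen for a gap between the means that set this scale, and they include Zhx2 and Dnah17. The counts are therefore a description, without a test. A second set of 27 genes was chosen in the sham libraries alone, as those whose strain means differed by at least 2 on the log2 scale with a spread of at most 1 within each strain. On the same kind of scale, with 0 and 1 at the sham means of the strains, its median position was 0.545. The other loaded hearts had medians of 0.941 and 1.05 in Balb/cByJ 4 and 5 and of 0.560, 0.287 and 0.169 in Balb/cJ 4, 5 and 6. At these 27 genes its median was thus inside the range of the loaded Balb/cJ hearts, just below Balb/cJ 4, and below both other hearts labelled Balb/cByJ. With a sham difference of at least 1 in place of 2 (191 genes), its median was 0.569. That was above 0.461, 0.305 and 0.393 in Balb/cJ 4, 5 and 6 and below 0.864 and 0.972 in Balb/cByJ 4 and 5. Its place against the Balb/cJ hearts thus depended on the genes chosen. Some of the 27 genes, such as Prss35 at 0.886 to 1.12 and Rxfp3 at 0.885 to 1.08, also lay near 1 in the loaded Balb/cJ hearts. Both gene sets were chosen in sham hearts, where atrial genes also differed between the strains (below). The part of this in the positions was not tested.

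**Figure D1:**
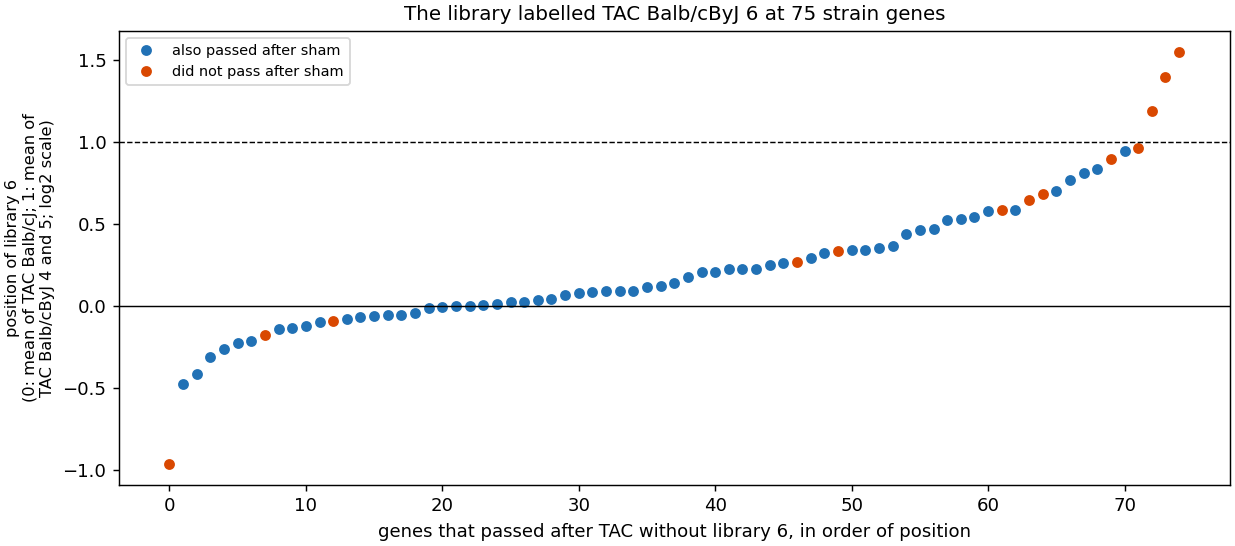
Position of the library labelled TAC Balb/cByJ 6 at each of the 75 genes that passed without it, in order (x axis, genes; y axis, position on the log2 scale, where 0 is the mean of TAC Balb/cJ and 1 the mean of TAC Balb/cByJ 4 and 5). The genes were chosen for a gap between the means at 0 and 1. Blue points also passed after sham and orange points did not. The blue points have a median of 0.0914 and the orange points one of 0.642.

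With all 6 loaded hearts as labelled, 1 of 14038 genes, Dbh, passed a Benjamini-Hochberg adjusted p under 0.1 in limma, which is 0.00712% of the genes tested. Without the library labelled Balb/cByJ 6, 75 genes passed (0.534%). Of these, 49 were higher in Balb/cByJ (0.349%) and 26 lower (0.185%), and 45 differed by over 2-fold, 32 of them higher and 13 lower. An unadjusted p under 0.05 was reached by 1371 genes as labelled (748 higher, 5.33%, and 623 lower, 4.44%) and by 1276 without that library (730 higher, 5.2%, and 546 lower, 3.89%). The 2 strains did not overlap at 2028 genes as labelled (14.4%) and at 3598 without that library (25.6%). Of the 75 genes, 14 passed under every alternative that could be run on them (up to 15 each): Adam11, Arl2bp, Bmyc, Btbd9, Dnah17, Fbxo32, Glo1, Gm10503, Gpnmb, Otud3, Rlf, Rtfdc1, Tmem215 and Zhx2. All of these alternatives left out the library labelled Balb/cByJ 6. As labelled, none of the 14 passed, and Zhx2 and Dnah17 were the genes that had raised the doubt. Single hearts moved the counts of genes that passed. As labelled, 61 genes passed without Balb/cJ 4, 27 without Balb/cByJ 4 and 0 without Balb/cJ 5, Balb/cJ 6 or Balb/cByJ 5. Without the library labelled Balb/cByJ 6 and 1 heart more, 125 passed without Balb/cJ 4, 38 without Balb/cJ 5 and 22 without Balb/cByJ 5. In a fit of the 5 loaded hearts alone, with no sham libraries to steady the spread, 18 genes passed, 17 of them among the 75.

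Dbh encodes dopamine beta-hydroxylase, which turns dopamine into noradrenaline in sympathetic nerves, and lies on chromosome 2 at 27165507 to 27183204. Its normalized values were 105, 81 and 71 in Balb/cJ and 211, 309 and 212 in Balb/cByJ, the last from the library labelled Balb/cByJ 6. All loaded Balb/cByJ hearts were above all loaded Balb/cJ hearts. Sham hearts also differed at Dbh, by 2.14 on the log2 scale, and it passed there in the fit without the library labelled Balb/cByJ 6. After TAC the difference was 1.49 ± 0.19 (SE) as labelled (limma adjusted p = 0.0535). Without the library labelled Balb/cByJ 6 it was 1.58 ± 0.21 (limma adjusted p = 0.00693, 3.0-fold). It passed no longer as labelled without Balb/cJ 5 (1.46, adjusted p = 0.415), Balb/cJ 6 (1.37, adjusted p = 0.148) or Balb/cByJ 5 (1.31, adjusted p = 0.239). Without both Balb/cByJ 5 and the library labelled Balb/cByJ 6 it was also 1.31 (adjusted p = 0.146).

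Genes of nerve ganglia moved with 2 of those hearts. Prph, a neuronal intermediate filament gene, read 6, 8 and 13 in Balb/cJ and 7, 358 and 195 in Balb/cByJ. Chrna3, a subunit of the ganglionic acetylcholine receptor, read 0 in all 3 Balb/cJ hearts and 0, 59 and 31 in Balb/cByJ. Th, the enzyme before Dbh in the pathway, read 2, 3 and 6 in Balb/cJ and 0, 31 and 13 in Balb/cByJ. These genes were high in Balb/cByJ 5 and in the library labelled Balb/cByJ 6 and at or near 0 in Balb/cByJ 4, where Dbh was still at 211. The sum over the 13 measured Schwann cell and neuron markers ran from 2101 to 2207 in Balb/cJ and from 2310 to 4459 in Balb/cByJ. Of the 13, Dbh alone passed, and 5 reached an unadjusted p under 0.05 higher as labelled and 4 without the library labelled Balb/cByJ 6. The median of the list was 0.58 and 0.55 on the log2 scale against 0.00 for all genes in both, and it came to 0.00 when Balb/cByJ 5 was left out as well. In bulk tissue, fewer cells of a type and less RNA per cell cannot be told apart, and this holds for every cell type gene below.

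The genes named by size of difference included Gpnmb, Mmp12 and Atp6v0d2, of which Gpnmb is in the macrophage list and Mmp12 in the matrix list. Gpnmb, a membrane glycoprotein of macrophages and pigment cells, read 105, 100 and 103 in Balb/cJ and 4973, 1320 and 212 in Balb/cByJ. Mmp12, the macrophage elastase, read 31, 14 and 25 in Balb/cJ and 2205, 269 and 31 in Balb/cByJ. Atp6v0d2, a subunit of the proton pump that acidifies lysosomes, read 2, 6 and 7 in Balb/cJ and 319, 70 and 15 in Balb/cByJ. For all 3 genes Balb/cByJ 4 was highest and the library labelled Balb/cByJ 6 nearest to Balb/cJ, and for Mmp12 that library lay at the top of the Balb/cJ range. As labelled none passed, with log2 differences of 3.43 for Gpnmb (adjusted p = 0.215), 3.53 for Mmp12 (adjusted p = 0.324) and 3.69 for Atp6v0d2 (adjusted p = 0.191). Without that library Gpnmb was higher by 4.63 ± 0.54 (adjusted p = 0.00282, 24.7-fold), Mmp12 by 5.06 ± 0.83 (adjusted p = 0.0283, 33.3-fold) and Atp6v0d2 by 4.77 ± 0.66 (adjusted p = 0.00837, 27.3-fold). Mmp12 did not pass without Balb/cJ 5 (4.74, adjusted p = 0.128) or Balb/cByJ 4 (3.54, adjusted p = 0.192) on top of that.

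The macrophage marker list as a whole had a small median difference after TAC. After sham the median of its 29 measured markers was 0.29, with 5 passing higher in Balb/cByJ and 0 lower. After TAC, 1 marker (Gpnmb) passed without the library labelled Balb/cByJ 6. There 5 (17.2%) reached an unadjusted p under 0.05 higher, against 5.2% of all genes, and 0 lower. The median log2 difference was 0.15 without that library and 0.03 as labelled, against 0.00 over all genes. Lgals3, which encodes galectin-3, read 220, 248 and 311 in Balb/cJ and 1591, 591 and 200 in Balb/cByJ, a difference of 1.91 without that library (adjusted p = 0.183) and 1.16 as labelled (adjusted p = 0.572). Cd68 read 328, 413 and 434 in Balb/cJ and 877, 517 and 427 in Balb/cByJ (0.79 without that library, adjusted p = 0.542, and 0.57 as labelled, adjusted p = 0.608). The sum over the 29 markers was 25991 to 29954 in Balb/cJ and 26767 to 40296 in Balb/cByJ, and its part in the differences of Gpnmb, Mmp12 and Atp6v0d2 was not tested. Tfe3, a transcription factor of lysosomal genes on chromosome X, was lower without that library and was chosen after its values were seen. It read 882, 896 and 1075 in Balb/cJ and 521, 485 and 1094 in Balb/cByJ, a difference of -0.91 ± 0.12 (adjusted p = 0.00485) and of -0.54 as labelled (adjusted p = 0.483). The call was lost when Balb/cByJ 5 was left out too (adjusted p = 0.102).

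Of the 75 genes, 17 lay in 6 groups of neighbours at most 1 Mb apart, and calls fell on 20 chromosomes. The genes near each other in these groups were chosen after their values were seen. Each stretch below was bounded by the genes that passed, which by itself raises its share of them above the 0.534% of all genes. The number of neighbours to be had without any grouping was not tested. On chromosome 17, 30215524 to 30963214, all 4 genes tested in a stretch of 747.7 kb were higher in Balb/cByJ. Glo1, the glyoxalase that removes methylglyoxal, read 2190, 2233 and 1903 in Balb/cJ and 6270, 6368 and 2076 in Balb/cByJ. Balb/cByJ 4 and 5 were far above the Balb/cJ hearts and the library labelled Balb/cByJ 6 was within their range. The difference was 1.59 ± 0.12 without that library (adjusted p = 9.8e-05, 3.0-fold) and 1.05 ± 0.32 as labelled (adjusted p = 0.319). Its neighbour Btbd9, which encodes a BTB domain protein, read 700, 649 and 678 in Balb/cJ and 1371, 1255 and 647 in Balb/cByJ (0.96 ± 0.11, adjusted p = 0.00189, and 0.62 as labelled, adjusted p = 0.359). Dnah8, another axonemal dynein gene, read 27, 51 and 77 in Balb/cJ and 292, 264 and 55 in Balb/cByJ (2.53 ± 0.46, adjusted p = 0.0508, and 1.75 as labelled, adjusted p = 0.349). The Dnah8 call was lost without Balb/cJ 5, Balb/cByJ 4 or Balb/cByJ 5. The predicted gene Gm10503 was listed at 0 in all 3 Balb/cJ hearts and in the library labelled Balb/cByJ 6, and at 34 in Balb/cByJ 4 and in Balb/cByJ 5. The library labelled Balb/cByJ 6 thus lay within the Balb/cJ range at Glo1, Dnah8 and Gm10503 and just below it at Btbd9.

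Around Dbh on chromosome 2, Surf4 and Rexo4 also passed without the library labelled Balb/cByJ 6, so 3 of the 8 genes tested between 26920041 and 27183204 did. Surf4, a cargo receptor of the endoplasmic reticulum, read 5228, 5768 and 5429 in Balb/cJ and 8524, 9108 and 4931 in Balb/cByJ (0.69 ± 0.09, adjusted p = 0.0059, and 0.41 as labelled, adjusted p = 0.473). Rexo4 read 391, 392 and 457 in Balb/cJ and 642, 708 and 417 in Balb/cByJ (0.71 ± 0.13, adjusted p = 0.0455, and 0.48 as labelled, adjusted p = 0.380). The library labelled Balb/cByJ 6 was below the Balb/cJ range for Surf4 and within it for Rexo4, yet at the Balb/cByJ level for Dbh in the same stretch. Surf4 lost its call without Balb/cByJ 5, and Rexo4 without Balb/cJ 5, Balb/cByJ 4 or Balb/cByJ 5.

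On chromosome 15, Zhx2 had 3 neighbours among the 75 genes, with 4 of 11 genes tested passing over 694.6 kb. They did not all go one way. Fbxo32, described further on, and Klhl38, a Kelch family gene, were higher, and Anxa13, an annexin gene, was lower. Klhl38 read 601, 423 and 593 in Balb/cJ and 1080, 1259 and 804 in Balb/cByJ (1.13 ± 0.16, adjusted p = 0.0105, and 0.95 as labelled, adjusted p = 0.127). Anxa13 read 60, 67 and 38 in Balb/cJ and 16, 14 and 52 in Balb/cByJ (-1.77 ± 0.32, adjusted p = 0.0508, and -1.19 as labelled, adjusted p = 0.388). On chromosome 11, Dnah17 was higher and its neighbour Cyth1, an exchange factor for Arf GTPases, was lower, with 1859, 2154 and 1158 in Balb/cJ and 703, 789 and 1679 in Balb/cByJ (-1.16 ± 0.20, adjusted p = 0.043, and -0.77 as labelled, adjusted p = 0.394). Without Balb/cByJ 5, Klhl38, Anxa13 and Cyth1 did not pass, and Anxa13 and Cyth1 did not without Balb/cJ 5 or Balb/cByJ 4 either. Of the known targets of Zhx2, the liver genes Cyp2a4, Hsd3b5, Mup1 and Mup20 were at 0 in all 6 hearts. H19 read 2475, 387 and 834 in Balb/cJ and 2039, 1233 and 1669 in Balb/cByJ, and Gpc3 read 195, 158 and 200 against 221, 322 and 251 (0.51 as labelled, adjusted p = 0.438, and 0.54 without the library labelled Balb/cByJ 6, adjusted p = 0.537).

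The 250 bases before the start of 4 genes are shown, as RefSeq gives the start in GRCm38.p6, each read 5′ to 3′ on the gene's own strand. These genes passed under every alternative run without the library labelled Balb/cByJ 6, and none of them passed as labelled. Capitals mark matches on either strand to the GC box GGGCGG, the CCAAT box, the TATA box TATAAA and the E-box CACGTG. A GC box is present in 32.7% of 32851 mouse windows of this length in the RefSeq table, a CCAAT box in 33.8%, a TATA box in 12.4% and this E-box in 6.02%. Of the 75 genes, 56 have an entry in that table.
Otud3 (chr4:138913969-138914218, minus strand): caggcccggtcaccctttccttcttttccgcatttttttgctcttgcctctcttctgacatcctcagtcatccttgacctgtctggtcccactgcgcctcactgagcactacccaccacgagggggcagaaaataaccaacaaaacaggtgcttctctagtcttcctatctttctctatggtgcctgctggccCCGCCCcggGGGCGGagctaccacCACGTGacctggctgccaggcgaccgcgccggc
Glo1 (chr17:30612660-30612909, minus strand): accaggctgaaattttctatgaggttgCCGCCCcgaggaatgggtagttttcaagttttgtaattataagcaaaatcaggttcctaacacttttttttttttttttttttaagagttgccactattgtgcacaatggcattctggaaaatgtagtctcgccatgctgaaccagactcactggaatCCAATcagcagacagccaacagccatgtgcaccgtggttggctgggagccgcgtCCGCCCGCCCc
Gpnmb (chr6:49036268-49036517, plus strand): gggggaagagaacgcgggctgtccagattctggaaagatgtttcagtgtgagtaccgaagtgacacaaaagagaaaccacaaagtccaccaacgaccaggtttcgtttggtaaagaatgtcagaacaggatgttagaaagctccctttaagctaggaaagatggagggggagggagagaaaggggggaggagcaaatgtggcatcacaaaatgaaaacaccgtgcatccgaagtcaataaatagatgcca
Dnah17 (chr11:118129220-118129469, minus strand): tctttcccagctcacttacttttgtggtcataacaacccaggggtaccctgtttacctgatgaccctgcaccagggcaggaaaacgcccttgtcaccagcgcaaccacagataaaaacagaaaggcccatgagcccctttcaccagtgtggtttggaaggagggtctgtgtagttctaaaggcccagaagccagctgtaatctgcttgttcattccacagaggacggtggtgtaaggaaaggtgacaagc
In Otud3, 2 GC boxes begin 57 and 48 bases before the start and an E-box 33 bases before it. In Glo1, GC boxes begin 223, 11 and 7 bases before the start, the last 2 of them overlapping, and a CCAAT box 65 bases before it. The windows of Gpnmb and Dnah17 hold none of the 4 motifs. A match is a description of the letters only.

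The strongest difference toward lower expression in loaded Balb/cByJ hearts was in Otud3, a deubiquitinase gene on chromosome 4 (138895379 to 138913947). It read 213, 201 and 238 in Balb/cJ and 12, 13 and 158 in Balb/cByJ. Here the library labelled Balb/cByJ 6 was below the Balb/cJ hearts and far above Balb/cByJ 4 and 5, so the strains did not overlap with it or without it. The difference was -4.01 ± 0.20 without it (adjusted p = 2.01e-06, 16.1-fold lower) and -2.83 ± 0.70 as labelled (adjusted p = 0.228). Arl2bp, a binding partner of the GTPase ARL2, read 2649, 2655 and 2726 in Balb/cJ and 779, 757 and 2401 in Balb/cByJ (-1.80 ± 0.10, adjusted p = 4.63e-06, and -1.25 as labelled, adjusted p = 0.249). Cuzd1, which encodes a membrane protein with CUB and zona pellucida domains, read 327, 258 and 242 in Balb/cJ and 59, 25 and 168 in Balb/cByJ (-2.80 ± 0.29, adjusted p = 0.00119, and -2.10 as labelled, adjusted p = 0.185). In both genes the library labelled Balb/cByJ 6 again lay between the groups, nearer to Balb/cJ. Rtfdc1, a replication termination factor gene, read 2703, 2764 and 2388 in Balb/cJ and 1333, 1313 and 2477 in Balb/cByJ (-0.98 ± 0.10, adjusted p = 0.000832, and -0.68 as labelled, adjusted p = 0.284), with that library inside the Balb/cJ range.

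**Figure D2:**
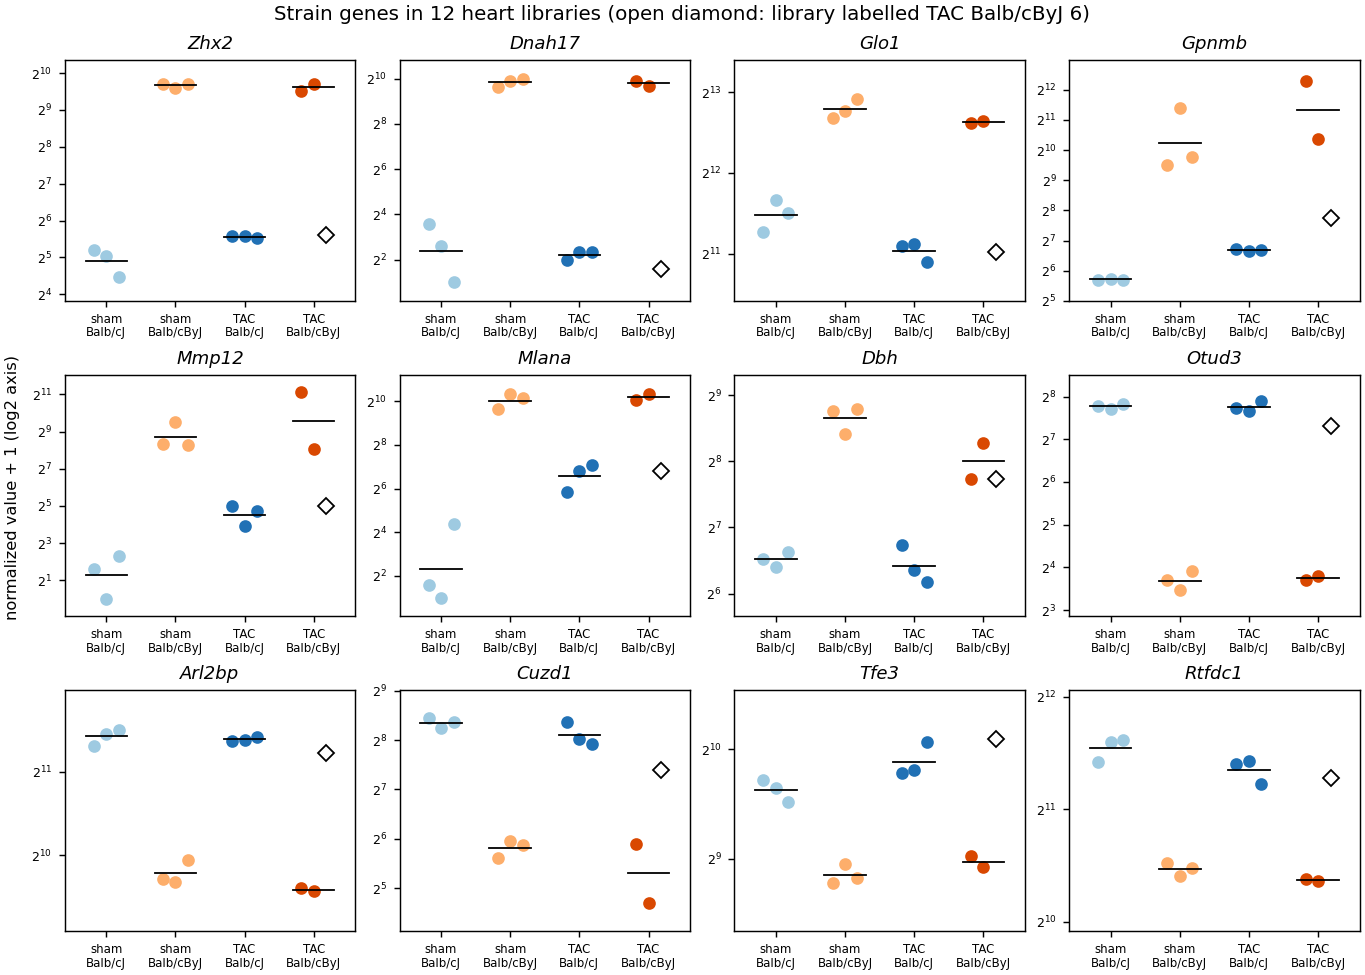
Normalized value plus 1 on a log2 axis for 12 genes, by strain and surgery, 1 point per library. Lines are group means on the log2 scale, the open diamond is the library labelled TAC Balb/cByJ 6, and the line of TAC Balb/cByJ is the mean of libraries 4 and 5. The diamond is at the Balb/cJ level for Zhx2 (48) and Dnah17 (2), between the strains for Otud3 (158) and at the Balb/cByJ level for Dbh (212).

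At 3 other genes that were lower in Balb/cByJ, the library labelled Balb/cByJ 6 was also below every Balb/cJ heart. Shisa3, a Shisa family membrane protein gene, read 772, 571 and 989 in Balb/cJ and 205, 146 and 545 in Balb/cByJ (-2.13 ± 0.30 without the library labelled Balb/cByJ 6, adjusted p = 0.00887, and -1.58 as labelled, adjusted p = 0.249). Tmem144, a membrane protein gene, read 2432, 2637 and 2540 in Balb/cJ and 1148, 1041 and 1408 in Balb/cByJ (-1.21 ± 0.19, adjusted p = 0.0165, and -1.09 as labelled, adjusted p = 0.116). Aldh1a2, the retinoic acid producing enzyme known from the epicardium, read 403, 672 and 552 in Balb/cJ and 258, 133 and 237 in Balb/cByJ (-1.51 ± 0.27, adjusted p = 0.0436, and -1.40 as labelled, adjusted p = 0.116). For Tmem144 and Aldh1a2 all 3 Balb/cByJ hearts were well below the Balb/cJ hearts, and the differences as labelled were -1.09 and -1.40 with an adjusted p of 0.116 for each. Shisa3 and Tmem144 lost their calls without Balb/cByJ 5 (adjusted p = 0.179 and 0.248), and Aldh1a2 without Balb/cJ 5 or Balb/cByJ 5. Aldh1a2 was the only one of 13 measured epicardial and mesothelial markers to pass, and the median of that list was 0.43 without the library labelled Balb/cByJ 6 and 0.09 as labelled, against a sum of 1661 to 2683 in Balb/cJ and 1693 to 2256 in Balb/cByJ.

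Further genes higher in Balb/cByJ included Bmyc, a paralog of Myc without its DNA-binding end, which read 366, 329 and 305 in Balb/cJ and 1082, 993 and 282 in Balb/cByJ (1.64 ± 0.13, adjusted p = 8.81e-05, and 1.01 as labelled, adjusted p = 0.394). Inmt, an indolethylamine methyltransferase gene, read 267, 91 and 67 in Balb/cJ and 582, 1089 and 289 in Balb/cByJ (2.75 ± 0.49, adjusted p = 0.0436, and 2.26 as labelled, adjusted p = 0.185). Aldh1l1, a folate enzyme gene, read 101, 108 and 68 in Balb/cJ and 287, 333 and 142 in Balb/cByJ (1.76 ± 0.37, adjusted p = 0.0953, and 1.39 as labelled, adjusted p = 0.275). At Bmyc the library labelled Balb/cByJ 6 was below every Balb/cJ heart, whereas it was above every Balb/cJ heart for Inmt and Aldh1l1. Leaving out any of the other 5 loaded hearts ended the Aldh1l1 call, and leaving out Balb/cJ 5 or Balb/cByJ 5 ended that of Inmt. Egf, the epidermal growth factor gene, and Tmem215 were chosen after their values were seen. Egf read 225, 236 and 171 in Balb/cJ and 466, 601 and 314 in Balb/cByJ (1.34 ± 0.17, adjusted p = 0.00444, and 1.09 as labelled, adjusted p = 0.134), and its call was lost without Balb/cByJ 5 (adjusted p = 0.101). Tmem215 read 7, 2 and 7 in Balb/cJ and 110, 127 and 15 in Balb/cByJ (4.37 ± 0.48, adjusted p = 0.00189, and 3.40 as labelled, adjusted p = 0.161).

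The strain difference in loaded hearts was then set beside that in sham hearts. After sham, 1175 genes differed between the strains (8.37% of those tested), and 1203 did (8.57%) when the library labelled TAC Balb/cByJ 6 was kept out of the fit that estimates the spread. Of the 75 genes after TAC, 62 (82.7%) passed after sham in the same direction, which is 5.15% of the 1203. In the 12-library fit of sham hearts it was 52 of the 75 (69.3%), or 4.43% of the 1175. Leaving out 1 sham heart moved the count of 1175 to 321 without Balb/cJ 2, 411 without Balb/cByJ 2, 623 without Balb/cByJ 1 and 636 without Balb/cByJ 3. Both lists come from separate libraries, but from one fit that shares its spread. The same sign was seen for 74 of the 75 (98.7%) and for 64.1% of all genes. Among the 1203 sham genes the median size of the log2 difference was 0.63 after sham and 0.28 after TAC, and among the 75 TAC genes it was 0.97 after sham and 1.17 after TAC. Each list was chosen for its own difference. Of the 366 that differed by over 2-fold after sham, 119 (32.5%) differed by over 2-fold the same way after TAC. Sham-called genes of the same sign after TAC numbered 1063 (88.4%) without and 1060 (88.1%) with the library labelled Balb/cByJ 6.

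Atrial genes differed between the strains in sham hearts. Myl7, the atrial myosin light chain, read 6, 13 and 11 in sham Balb/cJ and 4670, 14508 and 237 in sham Balb/cByJ, whereas after TAC it read 2381, 15126 and 9598 in Balb/cJ and 640, 30930 and 14285 in Balb/cByJ. Of the 18 measured atrial and conduction markers, 9 passed after sham with a list median of 2.37, and 0 passed after TAC with a median of 0.13 as labelled and -0.09 without the library labelled Balb/cByJ 6. With the mean of atrial genes as a covariate, 35 genes passed after sham and 66 after TAC without that library, of which 59 were among the 75. Myl7 fully separated the strains after sham, so the covariate overlaps with the sham strain contrast. The fall after sham therefore cannot tell a strain difference from an atrial one.

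**Figure D3:**
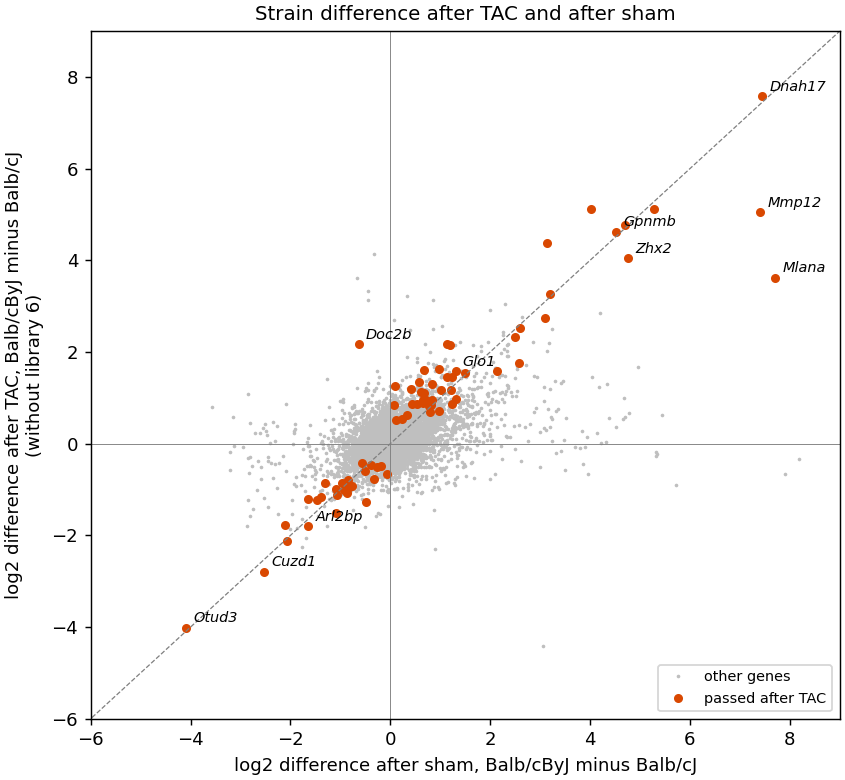
Log2 difference of Balb/cByJ minus Balb/cJ after sham (x axis) and after TAC without the library labelled Balb/cByJ 6 (y axis) for 14038 genes (grey), with the 75 that passed after TAC in orange and the line of equal differences dashed. All but 1 of the orange points have the same sign on both axes.

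Sizes under both surgeries are given for 5 of the 75 genes, chosen after their values were seen. Otud3 differed by -4.08 after sham and -4.01 after TAC, Dnah17 by 7.45 and 7.58, Gpnmb by 4.52 and 4.63, Angptl4 by 3.20 and 3.27 and Glo1 by 1.31 and 1.59. Mlana, a melanocyte antigen gene, was an example of unequal size. It read 2, 1 and 20 in sham Balb/cJ and 802, 1271 and 1126 in sham Balb/cByJ. After TAC it read 57, 112 and 133 in Balb/cJ and 1069, 1306 and 112 in Balb/cByJ, so loaded Balb/cJ hearts all lay above the sham Balb/cJ hearts. The strain difference was 7.71 after sham (adjusted p = 0.000199) and 3.63 ± 0.76 after TAC without the library labelled Balb/cByJ 6 (adjusted p = 0.0971). As labelled it was 2.50 after TAC (adjusted p = 0.394). The difference between the surgeries, -4.08 without that library, did not pass (adjusted p = 0.652). After TAC the Mlana call was lost without Balb/cJ 4, Balb/cJ 5, Balb/cByJ 4 or Balb/cByJ 5. Of the 5 measured melanocyte markers, 3 had a positive difference as labelled and 1, Mlana, without the library labelled Balb/cByJ 6. Dct read 404, 366 and 270 in Balb/cJ and 144, 96 and 93 in Balb/cByJ (-1.64 as labelled, adjusted p = 0.134, and -1.53 without that library, adjusted p = 0.137). Tyrp1, under the filter on low values, read 58, 16 and 28 in Balb/cJ and 3, 0 and 0 in Balb/cByJ.

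Of the 75 genes, 13 did not pass after sham in the fit of 11 libraries. The strain by surgery interaction tests whether the strain difference itself changed with surgery. It passed for 0 of these 13, and 10 (76.9%) reached an unadjusted p under 0.05. The 13 were chosen to differ after TAC and not after sham in the same fit. That choice itself favours a low interaction p, so no conclusion is drawn from the 10. Over all genes the interaction passed for 1 gene as labelled (0.00712%) and for 1 without the library labelled Balb/cByJ 6 (0.00712%). It was the same gene, Prss35, in both. An unadjusted p under 0.05 was reached by 954 genes (6.8%) as labelled and by 802 (5.71%) without that library. The 13 genes were chosen by the tests after TAC and sham after their values were seen, and most are described by level below. The rest are Tmem86a, Prr29, BC034090, Rasl10a, Pcdhb20 and D630045M09Rik. As labelled, the loaded groups overlapped at Rasl10a, Pcdhb20 and D630045M09Rik only. Rasl10a read 69, 50 and 54 in Balb/cJ and 143, 122 and 49 in Balb/cByJ. Pcdhb20 read 211, 198 and 175 against 112, 114 and 204. D630045M09Rik read 142, 133 and 103 against 56, 47 and 293.

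Fbxo32, which encodes the ubiquitin ligase atrogin-1 of muscle protein breakdown, read 3532, 3226 and 3595 in loaded Balb/cJ hearts and 5969, 6410 and 4033 in loaded Balb/cByJ hearts. In sham hearts it read 6076, 5533 and 5341 in Balb/cJ and 6542, 5622 and 5638 in Balb/cByJ. Sham values overlapped between the strains, while all loaded Balb/cJ hearts were below every other heart. The difference after TAC was 0.84 ± 0.10 without the library labelled Balb/cByJ 6 (adjusted p = 0.00404) and 0.64 as labelled (adjusted p = 0.193). After sham it was 0.07. The interaction was 0.77 without that library (adjusted p = 0.292) and 0.57 as labelled (adjusted p = 0.721).

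Nuak1, a kinase related to AMPK, showed the reverse. It read 2154, 2172 and 1773 in loaded Balb/cJ and 1321, 1254 and 1183 in loaded Balb/cByJ, against 1338, 1089 and 1292 in sham Balb/cJ and 1290, 1126 and 1117 in sham Balb/cByJ. The loaded Balb/cJ hearts were above all others, and the library labelled Balb/cByJ 6 was the lowest of the loaded hearts. The difference after TAC was -0.69 ± 0.11 as labelled (adjusted p = 0.116) and -0.65 ± 0.12 without that library (adjusted p = 0.0615). The interaction was -0.62 as labelled (adjusted p = 0.463) and -0.58 without that library (adjusted p = 0.706).

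Rgs17, a regulator of G protein signalling, read 73, 67 and 45 in loaded Balb/cJ and 166, 130 and 107 in loaded Balb/cByJ, with sham ranges of 81 to 95 and 79 to 113. Loaded Balb/cJ hearts were below and loaded Balb/cByJ hearts, apart from the library labelled Balb/cByJ 6, above the sham ranges (1.27 ± 0.24 without that library, adjusted p = 0.0615, and 1.12 as labelled, adjusted p = 0.161). Doc2b, a calcium sensor of vesicle release, read 14, 11 and 6 in loaded Balb/cJ and 44, 52 and 25 in loaded Balb/cByJ, and 6 of 6 sham hearts read 7 to 19. It was the 1 gene of the 75 with opposite signs, at 2.18 ± 0.43 after TAC without that library (adjusted p = 0.0781, and 1.87 as labelled, adjusted p = 0.174) and -0.63 after sham (adjusted p = 0.363). Slco2b1, an organic anion transporter, read 386, 294 and 320 in Balb/cJ and 660, 557 and 592 in Balb/cByJ (0.87 ± 0.17, adjusted p = 0.0673, and 0.86 as labelled, adjusted p = 0.116). In sham hearts it read 321, 350 and 266 against 394, 492 and 382, a difference of 0.44 (adjusted p = 0.124). Hmcn1, a matrix protein gene, read 536, 478 and 520 against 756, 731 and 913 (0.54, adjusted p = 0.0511, and 0.64 as labelled, adjusted p = 0.116), with 539 to 594 against 622 to 693 in sham hearts (0.23, adjusted p = 0.156). Crebrf read 629, 491 and 604 against 946, 815 and 1040 (0.62, adjusted p = 0.0783, and 0.70 as labelled, adjusted p = 0.116), with 617 to 694 against 782 to 852 in sham hearts (0.33, adjusted p = 0.112). At these 3 genes the sham groups did not overlap and differed in the same direction as after TAC. At Hmcn1 and Crebrf the library labelled Balb/cByJ 6 was the highest heart of all. Rgs17, Slco2b1, Hmcn1, Crebrf, Doc2b and Nuak1 each lost their call without Balb/cJ 5, Balb/cByJ 4 or Balb/cByJ 5, and Nuak1 also without Balb/cJ 4 and Slco2b1 and Doc2b without Balb/cJ 6, whereas Fbxo32 kept its call without each.

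**Figure D4:**
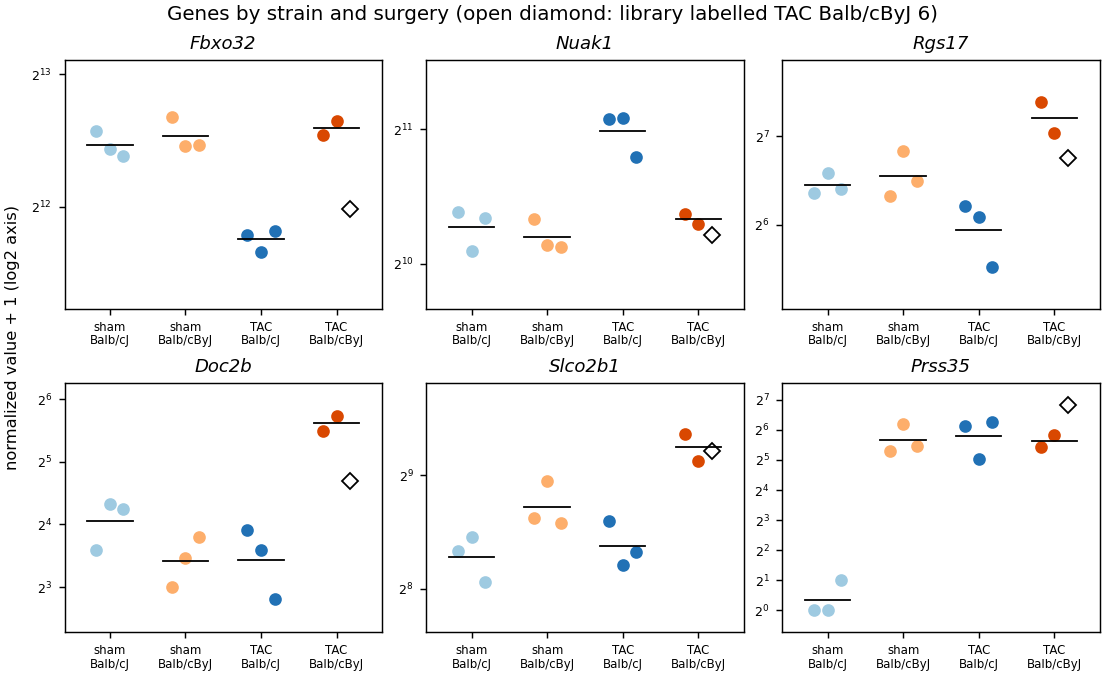
Normalized value plus 1 on a log2 axis for 6 genes, by strain and surgery, 1 point per library, with lines at group means on the log2 scale and the library labelled TAC Balb/cByJ 6 as an open diamond. Fbxo32, Nuak1, Rgs17, Doc2b and Slco2b1 passed after TAC without that library and not after sham, and Prss35 passed the interaction. Fbxo32 is lowest in the loaded Balb/cJ hearts (3226 to 3595), and Nuak1 is highest there (1773 to 2172).

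Acads itself did not differ detectably between the loaded hearts. It read 8670, 7252 and 5415 in Balb/cJ and 5674, 5613 and 6697 in Balb/cByJ, and the groups overlapped. The difference was -0.22 ± 0.15 as labelled (adjusted p = 0.663) and -0.31 ± 0.17 without the library labelled Balb/cByJ 6 (adjusted p = 0.628). A sum of reads over the whole gene does not show whether the deleted part is absent. Of 32 measured genes of acyl-CoA dehydrogenases and beta-oxidation, 0 passed, and 1 was higher at an unadjusted p under 0.05 without that library (3.12%) and 0 lower. Their median was 0.12, or -0.13 without Balb/cJ 6 as well.

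Genes that fatty acids induce through the receptor PPAR leaned toward Balb/cByJ after sham and after TAC. After sham the median of the 18 measured genes was 0.37, with 4 passing higher and 0 lower. After TAC the size of the median, and as labelled also its sign, depended on a single Balb/cJ heart. Without the library labelled Balb/cByJ 6, 18 of 18 measured genes of this list had a positive log2 difference, 8 (44.4%) reached an unadjusted p under 0.05 and 2 passed, with a median of 0.47. As labelled, 4 reached an unadjusted p under 0.05, 0 passed and the median was 0.26. Angptl4, an inhibitor of lipoprotein lipase, read 294, 279 and 57 in Balb/cJ and 1297, 2022 and 152 in Balb/cByJ. The difference was 2.13 as labelled (adjusted p = 0.421) and 3.27 ± 0.61 without that library (adjusted p = 0.0536), a call that was lost without Balb/cByJ 4 (adjusted p = 0.174) or Balb/cByJ 5 (adjusted p = 0.473). Ehhadh, a peroxisomal beta-oxidation enzyme, read 297, 290 and 218 in Balb/cJ and 445, 508 and 303 in Balb/cByJ (0.84 ± 0.17, adjusted p = 0.0828, and 0.62 as labelled, adjusted p = 0.320), a call lost without Balb/cJ 5, Balb/cJ 6, Balb/cByJ 4 or Balb/cByJ 5.

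Balb/cJ 6 and the library labelled Balb/cByJ 6 were the lowest loaded hearts of their groups at several of these genes. Pdk4, the kinase that shuts off pyruvate dehydrogenase, read 30649, 19501 and 1593 in Balb/cJ and 35375, 44695 and 4652 in Balb/cByJ. Ucp3, a mitochondrial uncoupling protein gene, read 504, 851 and 69 in Balb/cJ and 1739, 3165 and 565 in Balb/cByJ (2.92 without the library labelled Balb/cByJ 6, adjusted p = 0.186, and 2.23 as labelled, adjusted p = 0.359). Without Balb/cJ 6 the median of the list was -0.09 with all Balb/cByJ hearts and 0.19 without the library labelled Balb/cByJ 6. Nuclear genes of oxidative phosphorylation (71 measured) had a median of 0.00 in both comparisons, with 0 at an unadjusted p under 0.05.

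Heat shock and unfolded protein response genes leaned lower in loaded Balb/cByJ hearts, though 0 of 28 passed. At an unadjusted p under 0.05, 12 (42.9%) were lower and 0 higher as labelled, and 9 (32.1%) lower and 0 higher without the library labelled Balb/cByJ 6. Their median was -0.27 and -0.29, against 0.00 for all genes and -0.03 for this list after sham, and it was -0.19 to -0.38 whenever 1 heart was left out. After sham, 1 member passed higher and 2 lower. The sum over the list was lower in Balb/cByJ without load too, at 206838 to 260097 against 268640 to 282788 in sham Balb/cJ. After TAC this sum was 197725 to 227012 in Balb/cByJ and 236983 to 303641 in Balb/cJ. Hspb1, a small heat shock protein gene, read 7095, 6770 and 4972 in Balb/cJ and 3829, 4454 and 3707 in Balb/cByJ (-0.64 as labelled, adjusted p = 0.221, and -0.59 without that library, adjusted p = 0.265). Pdia4, a disulfide isomerase of the endoplasmic reticulum, read 1236, 1330 and 1167 in Balb/cJ and 1010, 894 and 918 in Balb/cByJ (-0.40 as labelled, adjusted p = 0.249, and -0.39 without that library, adjusted p = 0.275). Strains did not overlap at either gene, with the library labelled Balb/cByJ 6 at the low end.

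Of 28 genes of cardiac stress and the fetal program, 22 had a negative difference with and without the library labelled Balb/cByJ 6, again with 0 passing. As labelled 8 (28.6%) were lower at an unadjusted p under 0.05, and without the library labelled Balb/cByJ 6 it was 6 (21.4%), with 1 (3.57%) higher. Ankrd2, a stretch-responsive ankyrin repeat protein gene, read 32, 52 and 71 in Balb/cJ and 6, 15 and 20 in Balb/cByJ (-1.91 as labelled, adjusted p = 0.201, and -2.24 without that library, adjusted p = 0.102). Xirp1, a protein of the intercalated disc, read 18786, 17158 and 13944 in Balb/cJ and 11132, 9868 and 8932 in Balb/cByJ (-0.73 as labelled, adjusted p = 0.169, and -0.65 without that library, adjusted p = 0.186). The natriuretic peptide genes overlapped between the strains, with Nppa at 32183, 102846 and 123392 in Balb/cJ and 19809, 132138 and 82380 in Balb/cByJ and Nppb at 11346, 14532 and 18747 against 9622, 13496 and 13485. Fhl1, a muscle LIM protein gene, read 12855, 17296 and 26471 in Balb/cJ and 12091, 11262 and 7568 in Balb/cByJ (-0.84 as labelled, adjusted p = 0.275, and -0.63 without that library, adjusted p = 0.398). The median of the list was -0.35 as labelled and -0.29 without the library labelled Balb/cByJ 6, and it was -0.13 and -0.11 without Balb/cJ 6. After sham the median of this list was -0.25, with 1 gene passing higher and 2 lower. Itga7, the laminin receptor of muscle, was chosen after its values were seen and read 8219, 9539 and 9414 in Balb/cJ and 6291, 6377 and 6780 in Balb/cByJ (-0.51 ± 0.10 without that library, adjusted p = 0.0536, and -0.48 as labelled, adjusted p = 0.116). Its call was lost without Balb/cJ 5, Balb/cByJ 4 or Balb/cByJ 5.

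Proliferation and matrix genes rested on 2 hearts. Mki67, the marker of dividing cells, read 180, 291 and 524 in Balb/cJ and 236, 226 and 99 in Balb/cByJ, so Balb/cJ 6 was highest and the library labelled Balb/cByJ 6 lowest. Col1a1, the main fibrillar collagen gene, read 12917, 14508 and 35496 in Balb/cJ and 18919, 15313 and 11423 in Balb/cByJ, with the same hearts at the ends. Of 43 cell cycle genes 0 passed, 39 had a negative difference as labelled and 6 (14%) were lower at an unadjusted p under 0.05, against 1 (2.33%) without the library labelled Balb/cByJ 6. Their median was -0.64 as labelled, -0.27 without that library and -0.05 without both that library and Balb/cJ 6. Of 63 matrix genes 1, Mmp12, passed without the library labelled Balb/cByJ 6 and 0 as labelled. The median of the matrix list was -0.27 as labelled and -0.05 without the library labelled Balb/cByJ 6, and turned to 0.07 and 0.18 without Balb/cJ 6.

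Among other cell types, 24 endothelial markers had a median of -0.18 after sham, with 1 passing higher and 4 lower in Balb/cByJ. After TAC their median was 0.26 as labelled and 0.29 without the library labelled Balb/cByJ 6, with 0 passing. Aqp1, a water channel of capillaries, read 8252, 7500 and 4580 in Balb/cJ and 12047, 14002 and 10586 in Balb/cByJ (0.89 as labelled, adjusted p = 0.256, and 0.98 without that library, adjusted p = 0.186). Vwf, the endothelial clotting factor, read 4760, 3511 and 3306 in Balb/cJ and 5397, 5626 and 5927 in Balb/cByJ (0.57 as labelled, adjusted p = 0.307, and 0.53 without that library, adjusted p = 0.420). The strains did not overlap at either gene. Of 7 lymphatic markers 4 (57.1%) were higher at an unadjusted p under 0.05 without that library and 0 passed, with Mmrn1 at 247, 219 and 221 in Balb/cJ and 579, 504 and 299 in Balb/cByJ (1.24, adjusted p = 0.182, and 0.95 as labelled, adjusted p = 0.343).

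Of 8 measured lymphocyte markers, 4 had a positive and 4 a negative difference in both comparisons, with 0 passing and medians of 0.03 as labelled and -0.03 without the library labelled Balb/cByJ 6. At an unadjusted p under 0.05, 3 were higher and 0 lower in both comparisons. Without that library this was 37.5% higher, against 5.2% of all genes. The sum over all 17 genes of the list was 287 to 488 in Balb/cJ and 582 to 714 in Balb/cByJ. The list of 31 cytokine and inflammation genes had 10 positive and 21 negative members as labelled, 13 and 18 without that library, and 0 passing. The strains did not overlap at Igkc, Ighm and Ccl2, which did not pass. Igkc, the antibody kappa chain gene, read 27, 7 and 22 in Balb/cJ and 68, 109 and 90 in Balb/cByJ (2.36 as labelled, adjusted p = 0.169, and 2.33 without that library, adjusted p = 0.173), and Ighm read 253, 195 and 290 against 366, 453 and 445 (0.79 as labelled, adjusted p = 0.315, and 0.74 without that library, adjusted p = 0.425). The chemokine gene Ccl2 read 131, 78 and 133 in Balb/cJ and 29, 55 and 33 in Balb/cByJ (-1.54 as labelled, adjusted p = 0.169, and -1.45 without that library, adjusted p = 0.171). For Ccl2 the sham hearts leaned the other way, at 16 to 29 in Balb/cJ and 33 to 45 in Balb/cByJ, and in Balb/cByJ the sham and loaded values overlapped.

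**Figure D5:**
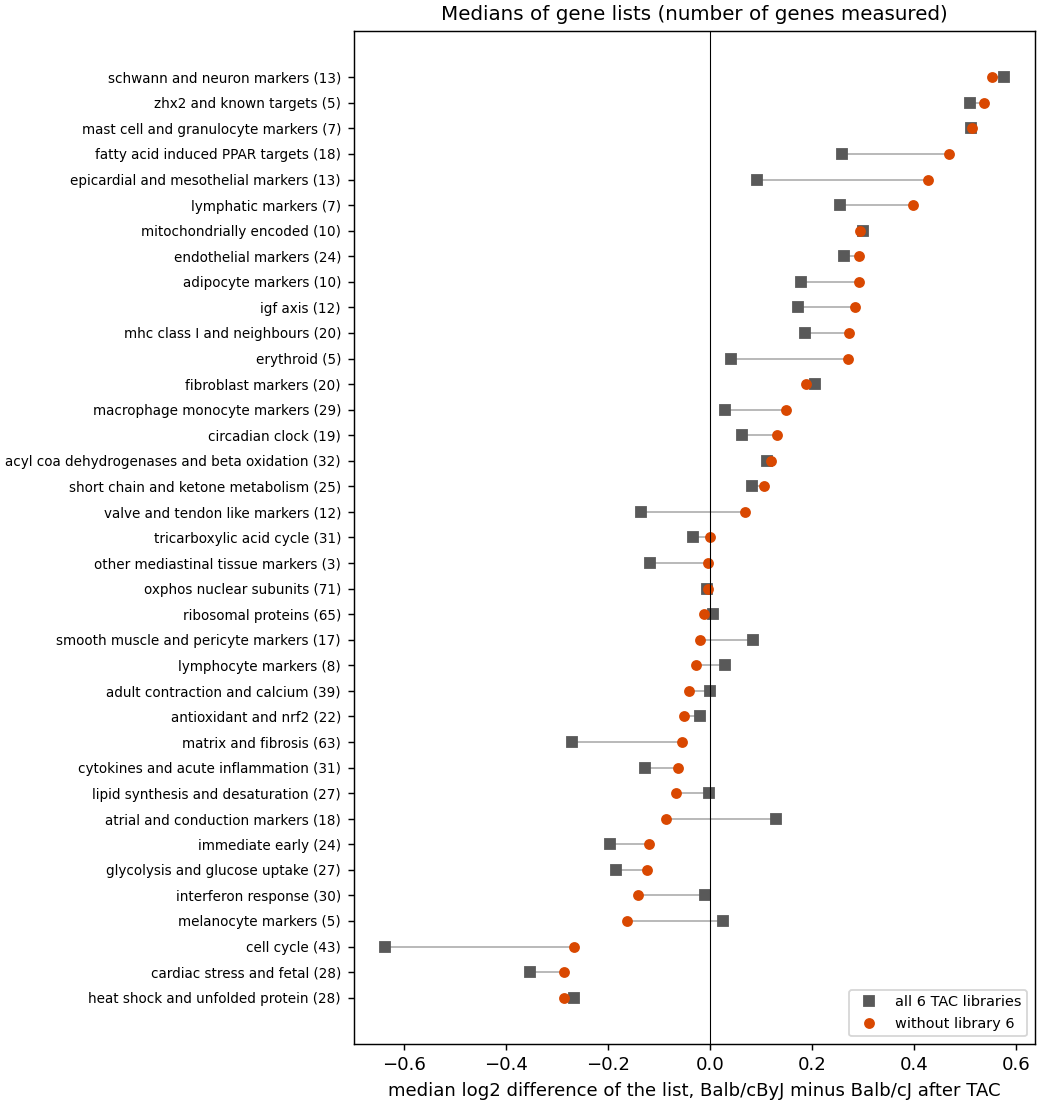
Median log2 difference of Balb/cByJ minus Balb/cJ after TAC (x axis) for 37 gene lists (y axis), with all 6 loaded hearts as grey squares and without the library labelled Balb/cByJ 6 as orange circles. The cell cycle list moves from -0.64 to -0.27 and the PPAR target list from 0.26 to 0.47 between the 2.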

How the data were processed

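Heart RNA was sequenced as 12 libraries on a NextSeq 500 with a strand-specific mRNA kit, per the labels' protocols. The submitters' processing notes name STAR, Subread, featureCounts, DESeq2 and the build mm10. Their versions, the gene annotation and whether counting used strand are not stated there. Overlapping genes and near-identical copies may therefore share reads. The deposited gene values are scores: the authors scaled each library's read counts by its own size factor and then rounded them, as the values themselves show. The deposited log2 fold changes and adjusted p-values, per the file headers those of TAC against sham in each strain, were not used. Gene lengths, in bases per the file headers, were not used either. Because the values were not counts, the planned count models were not run.

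TAC columns carry the numbers 4 to 6 and the TAC titles do not, so these columns were assigned by strain and surgery only and are named by their column number. Of 27179 genes, 20278 had a value above 0, and the 14038 with a mean over the 12 libraries of 10 or more were tested. Values were transformed as log2(value + 1), with a pseudocount of 1, which understates the change of low genes. The model was a mean for each of the 4 groups in limma (version 3.58.1, under R 4.3.3, with a trend in eBayes). It was fitted to all libraries (8 residual degrees of freedom) and to the 11 without the library labelled TAC Balb/cByJ 6 (7 residual degrees of freedom), so the groups share one spread. Passing means a Benjamini-Hochberg adjusted p below 0.1 over all genes tested. Values for sham and the interaction given beside results without that library come from the fit of 11. The number of libraries limits the precision, and depth beyond the normalized sums is unknown.

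Named genes had a mean of at least 50 over the 6 TAC libraries: the 12 largest rises and falls that passed with and without that library, Acads, Zhx2 and up to 4 members per list by smallest p. Genes named outside this rule, among them all with a lower mean, were chosen after their values were seen. Gene lists (37 lists, 924 genes, 918 matched, 842 measured) are described by counts and medians. The members, lists and tests were chosen with earlier results of these data known. Alternatives were no filter, a mean of at least 50, pseudocounts of 0.5 and 5, 2 rescalings, a fit of only the groups compared, an atrial covariate, a replicate block, an adjusted p of 0.05 and leaving out each library. The fit was tested on simulated data. Sequences were read with Python 3.11.15 from RefSeq (GRCm38.p6), and plots used matplotlib 3.10.9.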

Additional observations from a re-analysis of the deposited data

Results flagged for a closer look

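Prss35, a serine protease family gene, was picked out because its strain difference after TAC differed from that after sham. It read 0, 0 and 1 in sham Balb/cJ and 38, 73 and 43 in sham Balb/cByJ, and 69, 32 and 76 in loaded Balb/cJ and 42, 56 and 113 in loaded Balb/cByJ. Sham Balb/cJ hearts were the only group near 0, and the loaded groups overlapped. The strain by surgery interaction was -5.10 on the log2 scale as labelled (limma adjusted p = 0.0627) and -5.50 without the library labelled Balb/cByJ 6 (adjusted p = 0.0393). The strain difference after TAC alone was 0.22 as labelled (adjusted p = 0.922) and -0.18 without that library (adjusted p = 0.954). Atrial genes had a like pattern over the groups, with Myl7 at 6 to 13 in sham Balb/cJ and at 237 to 14508 in sham Balb/cByJ, and no gene passed the interaction with atrial genes as a covariate in either fit.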

How the results depend on the processing

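None of the genes that passed after TAC (1 as labelled, 75 without the library labelled Balb/cByJ 6) changed direction under the alternatives run on them. Single genes after sham and in the interaction were not followed. As labelled, the 1 gene after TAC became 2 with no filter on low values, 0 in a fit of only the groups compared, with the atrial covariate or at an adjusted p under 0.05, and 0 to 75 when 1 library was left out. Without the library labelled Balb/cByJ 6, the 75 genes became 18 in a fit of only the groups compared, 44 at an adjusted p under 0.05 and 22 to 125 without 1 more library. There, leaving out Balb/cByJ 4 or 5 leaves 1 library in the group, which is assumed to vary like the others. After sham, the 1175 genes became 35 with the atrial covariate, 568 at an adjusted p under 0.05 and 321 to 1606 without 1 library, and rescaling to equal totals gave 691 higher and 284 lower in place of 599 and 576. The 1 interaction gene became 0 with no filter, a mean of at least 50, a pseudocount of 5, equal totals, the atrial covariate or an adjusted p under 0.05, and 0 to 4 without 1 library. Without the library labelled Balb/cByJ 6 it became 0 with a mean of at least 50, a pseudocount of 5 or the atrial covariate, and 0 to 3 without 1 library more. Other causes of these changes were not tested. Same-numbered libraries of the strains deviated with r = 0.065, 0.0992 and -0.0506 after TAC and -0.21, -0.0653 and 0.174 after sham, so the numbers were not taken as pairs. A replicate block gave 28 genes after TAC as labelled, 87 without that library, 945 after sham, and 0 and 1 for the interaction. Of 1147 list medians under the alternatives, 41 moved by more than the spread between libraries. The edgeR and DESeq2 alternatives were not run because the values are not counts.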
